A study of Mus musculus with 3 samples.

Results

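The Ly6 genes encode small proteins of the Ly6/uPAR domain family, most of which are held at the outer cell surface by a glycosylphosphatidylinositol (GPI) anchor. Ly6 proteins are used as surface antigens to sort mouse blood cells: Ly6A is Sca-1 of hematopoietic stem cells, Ly6C marks inflammatory monocytes, and Ly6G marks neutrophils. Several members of the family are known to be induced by interferons. Levels of 6 listed Ly6 genes, Ly6a, Ly6c1, Ly6c2, Ly6e, Ly6f, and Ly6i, are given here out of 34821 gene names on the array. Probes were taken by gene name, and 5 of the 6 genes had a probe. Ly6c1 had 2 probes, and no probe carried the name of Ly6c2 or listed any of its 4 RefSeq transcripts. The family was chosen by the signal of Ly6i, which had been seen high in Triple, so the levels that follow are a description and were not tested.

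Gene expression was examined in bone marrow-derived macrophages (BMDMs) of C57BL/6J mice, grown from marrow with M-CSF and stimulated for 20 h. CpG is a DNA ligand of TLR9, IFN-γ is the cytokine of activated T and NK cells, and αIL-10R is a blocking antibody to the receptor of IL-10 (IL-10RB in the labels). The 3 conditions were CpG alone, IFN-γ + αIL-10R, and Triple, which combined all of these agents, and the study set them up to look for surface receptors of macrophages that engulf live cells. Each condition had 1 array and no unstimulated array was analysed, so none of the differences has a replicate check, IFN-γ and αIL-10R cannot be told apart, and the number of arrays limits the precision.

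Between 44.4% and 46.0% of the 59305 gene spots of an array were well above background, and no gene spot was saturated. All 9 macrophage markers, including Csf1r and Cd68, were well above background on each array. Single markers differed between arrays: Mrc1 had 5910 in CpG, 3274 in IFN-γ + αIL-10R, and 76.4 in Triple, whereas Cd14 had 55389, 5534, and 90961. As a measure of technical error only, the log2 fold between single spots had an SD of 0.13, taken from probes printed more than once on an array. This SD holds no variation between arrays, labellings, or cultures. All 6 Ly6 probes were single spots well above background on all 3 arrays. Signals are processed intensities with the error that the scanner software gave them, and log2 folds are differences after scaling. Signals of different probes cannot be set against each other.

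The probes are shown because the Ly6 genes are close relatives, and a level belongs to a gene only as far as its probe tells the genes apart. The first 30 of the 60 bases of each probe are printed 5′ to 3′, with no base marked by capitals.

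Ly6e: tatcattgtacccaccttgtactctgttca

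Ly6i: taaagagccgttcttgccatcctttctgcc

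Ly6a: tatgagttatagaagctccaaggtgggagt

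Ly6c1, first probe: tattatagtatcaccatccacacataagta

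Ly6c1, second probe: agcagttacctgccgcgcctctgatggatt

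Ly6f: tttcaaatatgtacttcctagaatgccatt

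No pair of these probes shared a run of more than 6 bases. At the best ungapped alignment the probes of Ly6a and of Ly6c1 (first probe) matched at 25 of 60 bases, and the closest pair, Ly6i and the second Ly6c1 probe, matched at 27. A run of 15 bases was shared with another probe of the array in 1 case, between Ly6e and LOC101055842. This compares probes with probes only. Cross-hybridisation of a probe with transcripts of other Ly6 genes, Ly6c2 included, was not tested, since no transcript sequences were used here.

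In mm9, the build of the array annotation, the probes lay on chromosome 15 within 313 kb. The order along the chromosome was Ly6e (chr15:74789592-74789651, NM_001164036), Ly6i (chr15:74810484-74810543, NM_020498), Ly6a (chr15:74825553-74825612, NM_010738), Ly6c1 (chr15:74875495-74875554 for the first probe, NM_001252055, and chr15:74877785-74877844 for the second, NM_001252058), and Ly6f (chr15:75102462-75102522, NM_008530). Ly6e and Ly6f probes were on the plus strand and the others on the minus strand. The exon of each probe was not looked up, because no genome annotation of that build was used here.

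The 5 genes fell into 3 patterns. Ly6i and Ly6f were brightest in Triple, Ly6a and Ly6c1 were brightest in IFN-γ + αIL-10R and dimmest in CpG, and Ly6e stayed within 2-fold across the arrays, at the edge of the threshold. Fewer expressing cells and less RNA per cell cannot be told apart in such bulk RNA.

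Ly6i, a member carried by myeloid cells, had a signal of 106 ± 12.2 in CpG, 109 ± 12.7 in IFN-γ + αIL-10R, and 2179 ± 218 in Triple. It was low on both arrays of partial stimulation and high in Triple only. The log2 fold of Triple was 4.36 over IFN-γ + αIL-10R (20.5-fold) and 4.42 over CpG (21.4-fold). The log2 gap between CpG and IFN-γ + αIL-10R was 0.07, or 0.52 of the technical SD. Among the 16512 genes that stood well above background throughout, Ly6i had the 35th highest fold over IFN-γ + αIL-10R and the 37th highest over CpG. Normexp background correction, an alternative to the fitted background, gave log2 folds of 3.64 over IFN-γ + αIL-10R, and 3.77 over CpG.

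Ly6f, a less studied relative, had a signal of 48.4 ± 7.86 in CpG, 326 ± 33.3 in IFN-γ + αIL-10R, and 1971 ± 197 in Triple. Unlike Ly6i, it rose in steps from CpG to IFN-γ + αIL-10R to Triple. The log2 fold of Triple was 2.63 over IFN-γ + αIL-10R (6.21-fold) and 5.41 over CpG (42.4-fold). The latter was the 27th highest of the 16512 genes. CpG lay below IFN-γ + αIL-10R by 6.83-fold, a log2 fold of −2.77. The signal in CpG was near the lower limit of that array (23.8), and with normexp background correction the log2 fold over CpG was 4.08 and that of CpG over IFN-γ + αIL-10R was −1.70.

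**Figure D1:**
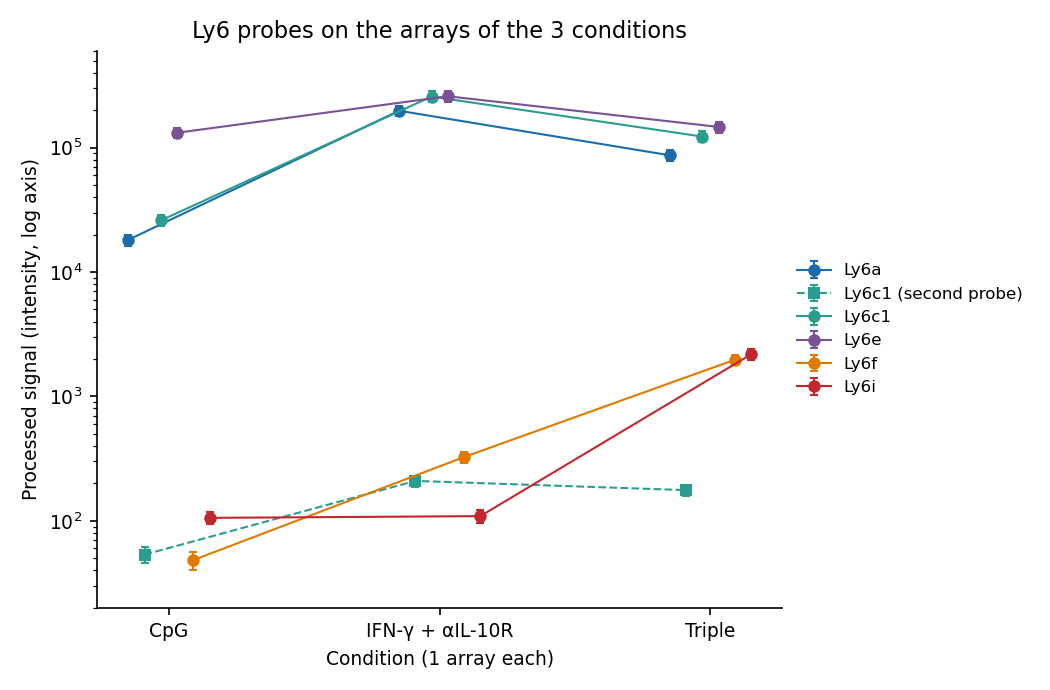
Processed signal (log axis) of the 6 Ly6 probes on the 3 arrays, 1 per condition; bars are the scanner software's error of a spot, and lines join the values of 1 probe. Within a line, Ly6i (106, 109, and 2179) is high in Triple only, whereas Ly6a and the first Ly6c1 probe peak in IFN-γ + αIL-10R.

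Ly6a (Sca-1) had a signal of 18139 ± 1814 in CpG, 197727 ± 19773 in IFN-γ + αIL-10R, and 86668 ± 8667 in Triple. From lowest to highest the order was therefore CpG, Triple, and IFN-γ + αIL-10R. Neighbours in this order lay at least 8.89 technical SDs apart, a measure that leaves out variation between arrays and cultures. CpG was 11.1-fold lower than IFN-γ + αIL-10R (log2 fold −3.47), the 63rd lowest fold of the 16512 genes. Triple was 4.97-fold higher than CpG (log2 fold 2.31) and 2.22-fold lower than IFN-γ + αIL-10R (log2 fold −1.15).

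Ly6c1 encodes an Ly6C antigen, the other of the Ly6C genes being Ly6c2. Its first probe gave 25968 ± 2597 in CpG, 257040 ± 25704 in IFN-γ + αIL-10R, and 122567 ± 12257 in Triple. This was the same order as for Ly6a, with log2 folds of −3.33 for CpG over IFN-γ + αIL-10R (10.0-fold lower), 2.30 for Triple over CpG (4.91-fold higher), and −1.03 for Triple over IFN-γ + αIL-10R (2.05-fold lower). The last value lies just past the 2-fold threshold and fell short of it with the mean of both probes (−0.62), with scaling over all probes, and in the log2 table of the authors.

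The second Ly6c1 probe was dim and gave smaller folds than the first. Its signals were 53.6 ± 7.53 in CpG, 209 ± 21.7 in IFN-γ + αIL-10R, and 177 ± 18.6 in Triple. CpG was again lowest, by log2 folds of 1.78 under Triple and 1.99 under IFN-γ + αIL-10R. The log2 fold of Triple over IFN-γ + αIL-10R was −0.21, or 1.62 technical SDs, so the lower level of Ly6c1 in Triple rests on the first probe. These probes were annotated to different Ly6c1 transcripts, and gene-level values of Ly6c1 here are those of the first, brighter probe.

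Ly6e, an interferon-induced member that restricts some viruses, had a signal of 131499 ± 13150 in CpG, 258592 ± 25859 in IFN-γ + αIL-10R, and 146481 ± 14648 in Triple. IFN-γ + αIL-10R was again highest, but the log2 folds were small, at 0.21 for Triple over CpG and −0.78 for Triple over IFN-γ + αIL-10R. The gap between Triple and CpG was 1.64 technical SDs. The log2 fold of CpG over IFN-γ + αIL-10R was −0.997 (1.996-fold lower), just short of the threshold. It passed the threshold with normexp correction (−1.001) and with quantile (−1.03), median (−1.07), or spike-in scaling (−1.04), where 4 rather than 3 of the Ly6 genes were lower in CpG. The only spot of Ly6e had a mark for an uneven local background on all 3 arrays. The deposited signals did not use the local background, so the spot was kept.

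Counted with a 2-fold threshold in either direction, Ly6f and Ly6i were higher and Ly6a and Ly6c1 were lower in Triple than in IFN-γ + αIL-10R. Over all 34813 gene names measured, 3.56% were higher and 5.01% lower in that comparison. In Triple compared with CpG, 4 of the 5 genes were higher and none was lower, Ly6e being the exception, beside 4.12% and 4.58% of all names. In CpG compared with IFN-γ + αIL-10R, Ly6a, Ly6c1, and Ly6f were lower and none was higher, beside 3.19% and 2.75% of all names. These shares are given as background only, since the genes were picked with these values known, and each pair of comparisons shares an array.

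The median log2 folds of the 5 genes were −0.78 (Triple over IFN-γ + αIL-10R), 2.31 (Triple over CpG), and −2.77 (CpG over IFN-γ + αIL-10R). In the same order, the medians of the 16512 genes with signal on every array were −0.04, −0.05, and 0.00. Over all 34813 names the medians were 0.02, 0.21, and −0.19, which are what a pair of signals at the lower limits of the arrays gives, since most names were not well above background. A median over 5 genes with opposite patterns describes no single gene.

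**Figure D2:**
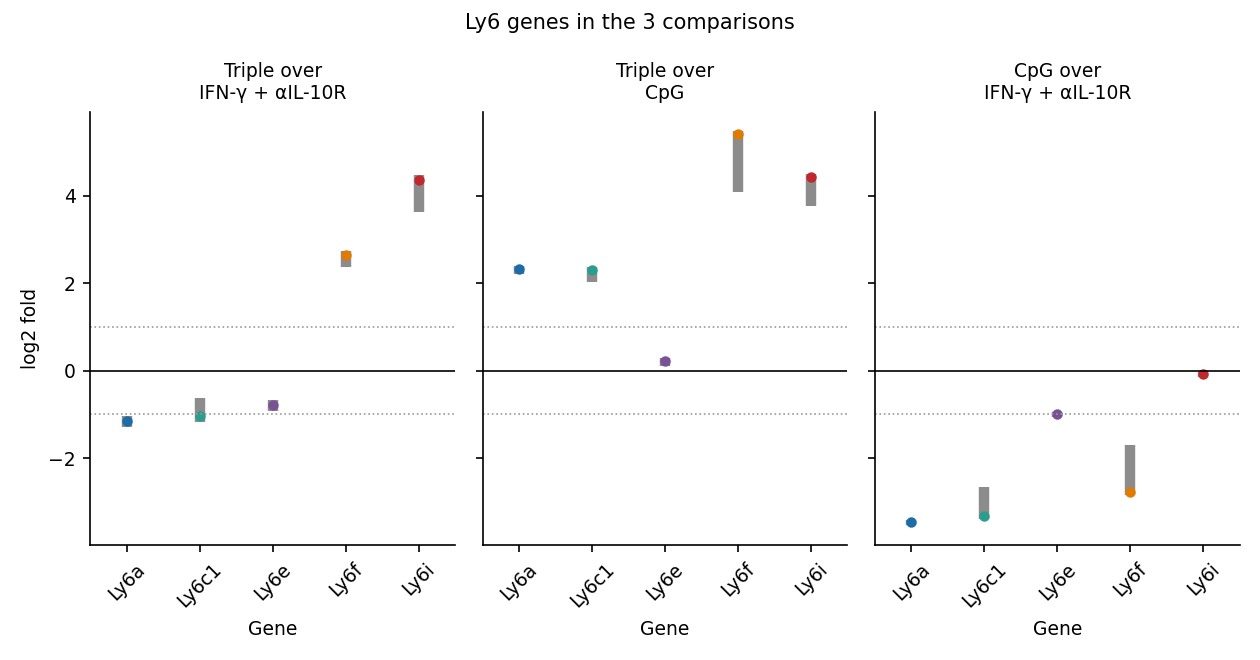
Log2 folds of the 5 Ly6 genes in the 3 comparisons (points), with grey bars spanning the values under other ways of processing the arrays; dotted lines mark 2-fold. Ly6i and Ly6f (4.36 and 2.63) lie above the upper line in Triple over IFN-γ + αIL-10R, whereas the bar of Ly6c1 crosses the lower line there.

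Next, genes with a profile most like that of each Ly6 gene were listed by the distance between their 3 log2 levels, each gene centred on its own mean, over 10930 gene symbols. With 3 arrays a small distance is easily reached, so these are neighbours in 3 values and nothing more. The gene closest to Ly6a was Ly6c1, and the gene closest to Ly6c1 was Ly6a, at a distance of 0.11. Ly6c1 was also the gene closest to Ly6a after normexp background correction (0.0792) and after quantile normalization (0.105). Next for both came Gnb4, a G-protein β subunit, at 0.14, followed by the transcription factor gene Pou3f1 (0.19) for Ly6a and by Wdfy1 (0.24) for Ly6c1. For comparison, 526 genes lay closer to Ly6a than Ly6e did, and the second Ly6c1 probe lay at 1.06.

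Ly6i had Fhod3, a formin gene, as its closest neighbour, at 0.12. Fhod3 signals were 45.2 in CpG, 43.7 in IFN-γ + αIL-10R, and 826 in Triple. Ramp3, a receptor activity-modifying protein (0.44), Irg1, the enzyme of itaconate synthesis (0.69), the potassium channel gene Kcna3 (0.71), and the small Maf factor Maff (0.72) came next. After normexp correction Ramp3 was the closest and Fhod3 was at rank 3.

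Ly6f had no neighbour as near, the closest being Cd40, the costimulatory receptor, at 0.74. Cd40 signals were 1451 in CpG, 4777 in IFN-γ + αIL-10R, and 45468 in Triple, the same stepwise order. Ccrl2, a chemokine-like receptor (0.95), and the early response gene Egr1 followed. Ly6e was nearest to Rab39, a small GTPase (0.02), Ifi30, the interferon-inducible lysosomal thiol reductase (0.03), and Plcb2, a phospholipase C (0.04). The neighbours of Ly6e changed with processing, Rab39 falling to rank 22 after normexp correction and to rank 21 after quantile normalization, and for Ly6f Cd40 fell to rank 7 after normexp correction.

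The stretch of chromosome 15 from Psca to Gpihbp1 (mm9, 882 kb) holds the Ly6 genes together with relatives of the same domain family. It had 39 probes on the array, 33 of which belong to genes other than the listed ones, and 15 of these were well above background on at least 1 array.

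Ly6g, the neutrophil antigen gene 163 kb from the Ly6a probe, had signals of 555 in CpG, 7699 in IFN-γ + αIL-10R, and 2658 in Triple. This is the order of Ly6a, with log2 folds of −3.82 for CpG over IFN-γ + αIL-10R, 2.32 for Triple over CpG, and −1.498 for Triple over IFN-γ + αIL-10R. Only 4 of the 10930 genes lay closer to Ly6a than Ly6g did, at 0.28. The uncharacterised gene 9030619P08Rik gave 1750, 27021, and 9145 in the order CpG, IFN-γ + αIL-10R, Triple, and lay at 0.37 from Ly6a.

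The same order was seen for the transcript ENSMUST00000089689 (428, 10661, and 3724 in CpG, IFN-γ + αIL-10R, and Triple) and for Gm3142 (37.4, 756, and 222). It was also seen for I830127L07Rik, which RefSeq names Ly6a2, with 224 in IFN-γ + αIL-10R, 93.8 in Triple, and no signal well above background in CpG. All of these lay past 2-fold in each of the 3 comparisons, by at least log2 2.04 in Triple over CpG for Ly6a2. The probes of Ly6g and ENSMUST00000089689 shared a run of 28 bases, so these signals may not be separate. The probe of Ly6g began atcactggtaatgctgtcaacgtgaagact and that of ENSMUST00000089689 began aactttaatgtgaatacctcctgttgcaag.

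No gene on the Psca side of Ly6e lay past 2-fold in all 3 comparisons in that order. Ly6k was well above background in Triple only, at 158, which was at least log2 2.61 above IFN-γ + αIL-10R and at least 2.80 above CpG. Lypd2, Lynx1, Gml2 (Hemt1 on the array), and Slurp2 (2300005B03Rik) were well above background throughout and stayed within 2-fold. Ly6m (2010109I03Rik) had 49.8 in IFN-γ + αIL-10R and 31.2 in Triple and was not well above background in CpG, so that CpG over IFN-γ + αIL-10R was −1.09 or lower in log2 fold. At the far end Gpihbp1, which carries lipoprotein lipase into capillaries, had signals of 104, 142, and 144 in CpG, IFN-γ + αIL-10R, and Triple. Psca, Slurp1, Ly6d, and Ly6h were not well above background on any array.

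**Figure D3:**
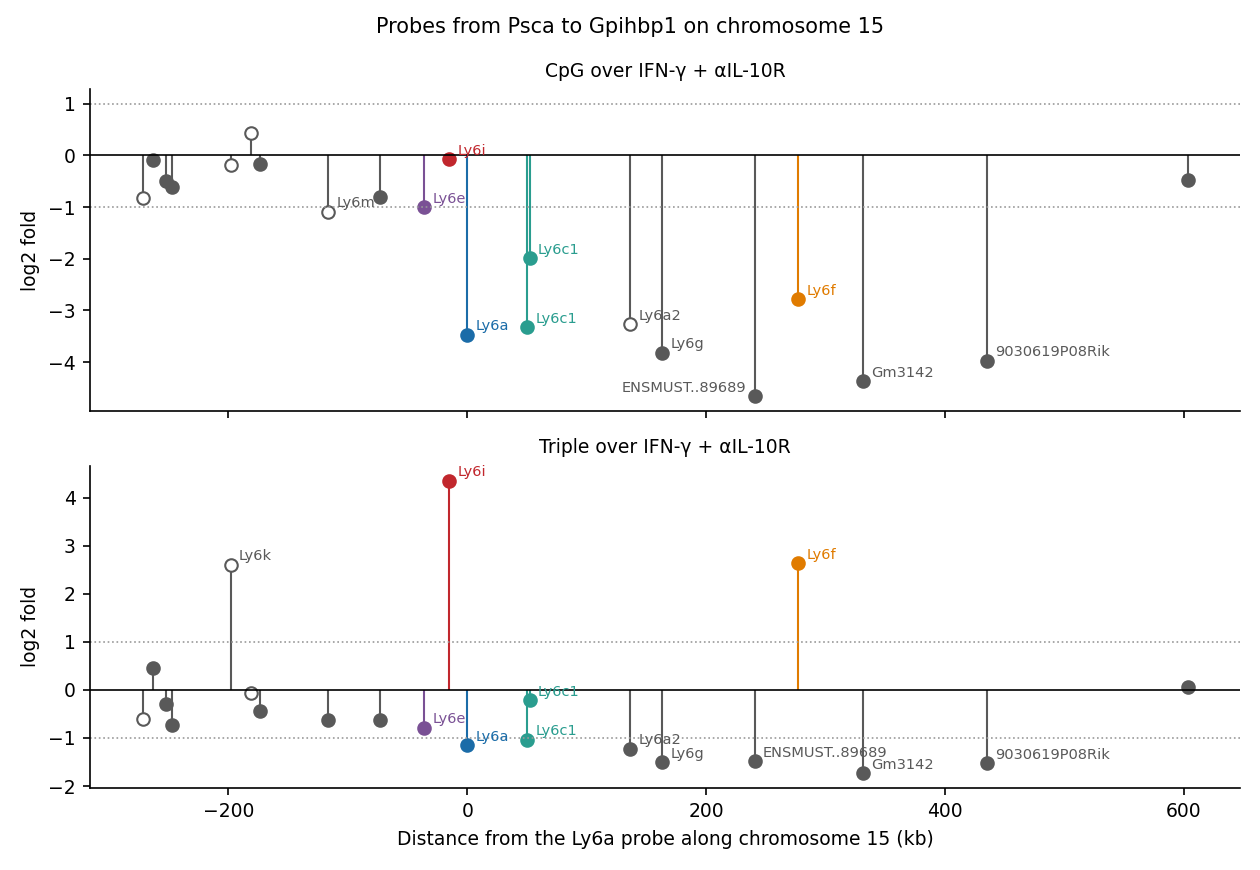
Log2 folds of probes between Psca and Gpihbp1 that were well above background on at least 1 array, against distance (kb) from the Ly6a probe. Coloured points are the listed Ly6 genes, open points have a signal not well above background in the panel's comparison, and dotted lines mark 2-fold. Ly6i and Ly6f (4.36 and 2.63) are high in the lower panel, as is Ly6k (at least 2.61). The points next to Ly6i and Ly6f have negative log2 folds there, that of Ly6e (−0.78) being within 2-fold.

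To ask what these genes share upstream, promoter windows from RefSeq (GRCm38.p6, 300 bases around a transcript start) were read. The table held windows for Ly6c1, Ly6c2, and Ly6f and none for Ly6a, Ly6e, or Ly6i. The Ly6c1 and Ly6f windows are shown because they resemble each other while the signals of these genes went opposite ways between IFN-γ + αIL-10R and Triple. Capitals mark TATAAA and GAGGAAGT, a core of binding sites for the macrophage factor PU.1. The sequences are chr15:75048788-75049087 on the minus strand for Ly6c1 and chr15:75268171-75268470 on the plus strand for Ly6f.

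Ly6c1: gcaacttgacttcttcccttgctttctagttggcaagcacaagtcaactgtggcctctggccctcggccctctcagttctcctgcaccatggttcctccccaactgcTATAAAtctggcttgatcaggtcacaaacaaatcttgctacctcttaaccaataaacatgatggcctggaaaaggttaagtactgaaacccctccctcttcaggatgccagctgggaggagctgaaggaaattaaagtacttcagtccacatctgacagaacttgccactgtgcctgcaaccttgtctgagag

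Ly6f: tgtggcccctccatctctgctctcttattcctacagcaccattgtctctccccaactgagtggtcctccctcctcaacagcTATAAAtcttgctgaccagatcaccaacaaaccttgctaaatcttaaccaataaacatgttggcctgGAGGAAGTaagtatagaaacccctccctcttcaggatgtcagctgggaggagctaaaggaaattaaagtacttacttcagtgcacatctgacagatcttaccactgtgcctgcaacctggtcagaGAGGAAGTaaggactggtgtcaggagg

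The windows of Ly6c1 and Ly6f were identical at 219 of 247 aligned bases (88.7%), with 34 gap bases not counted. This likeness was not particular to the pair. The second Ly6g window was identical to that of Ly6f at 263 of 297 aligned bases (88.6%) and to that of Ly6c1 at 221 of 250 (88.4%). TATAAA began at −143 in Ly6c1 and at −169 in Ly6f, counted from the start site. GAGGAAGT began at −102 and at 24 in Ly6f. It was absent from the Ly6c1 window shown and present at −127 in the window of another Ly6c1 start, with which that window overlaps. The window shown ends inside that copy, after its first 3 bases, so its absence there comes from the edge of the window. Of the Ly6c2 windows, the first had it at −108 and 27, and that window was 98.6% identical to the Ly6a2 window over 295 aligned bases, although the Ly6a2 window held no GAGGAAGT. The second Ly6g window had GAGGAAGT at −99 and 27 and TATAAA at −167, close to their places in Ly6f, whereas the signals of Ly6g followed the order of Ly6a.

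On either strand, GAGGAAGT is present in 3.20% and TATAAA in 13.6% of 32851 RefSeq windows of this length. A search on both strands for the IFN-γ-activated site TTCNNNGAA (8.30% of windows), the interferon-stimulated response core, shortened to GAAANNGAA (8.56%), and the NF-κB site, shortened to GGGACTTTC (0.353%) found none in the windows of Ly6c1, Ly6c2, Ly6f, Ly6a2, or Ly6g. The letters GAGGAAGT were chosen after the sequences had been seen. These are matches of letters in short windows and say nothing of binding.

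Because several Ly6 genes are known as interferon targets, 20 genes induced by IFN-γ and 20 induced by type I interferon were counted beside them. Every gene of both lists was well above background on at least 1 array, unlike many names, so shares of all names are not like for like. In Triple compared with CpG, 19 of the 20 IFN-γ-induced genes were higher and none was lower (all names: 4.12% and 4.58%), with a median log2 fold of 3.12. In CpG compared with IFN-γ + αIL-10R, 19 were lower (all names: 3.19%), with a median of −3.63. Among these were the chemokine genes Cxcl9, with log2 folds of 12.60 and −8.57 in the respective comparisons, and Cxcl10 (6.72 and −5.73), and the guanylate-binding protein gene Gbp5 (6.69 and −5.89). Ly6a, Ly6c1, and Ly6f lay in the same direction in both comparisons, with log2 folds of Triple over CpG of 2.31, 2.30, and 5.41. Ly6i was higher in Triple than in CpG too (4.42), but its log2 fold of CpG over IFN-γ + αIL-10R was −0.07. Ly6e stayed within 2-fold in both comparisons (0.21 and −0.997).

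Between Triple and IFN-γ + αIL-10R, where Ly6a and Ly6c1 were lower, 1 of the 20 genes, the class II transactivator gene Ciita, was lower past 2-fold (−1.99), and the median was −0.04. Cxcl9 (4.04) and Ido1, the tryptophan-degrading enzyme (at least 2.76), were higher, as were Ly6i and Ly6f. Of the type I interferon-induced genes 11 were higher in Triple than in CpG (all names: 4.12%), with a median of 1.03. In CpG compared with IFN-γ + αIL-10R 9 were lower (all names: 3.19%), with a median of −0.92. In Triple compared with IFN-γ + αIL-10R 1 was lower and none was higher (all names: 5.01% and 3.56%), with a median of 0.04. The antiviral gene Ifit3 was that gene (−1.43), and Mx1 (2.64) and Ifit2 (2.19) had the highest log2 folds of Triple over CpG in the list.

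**Figure D4:**
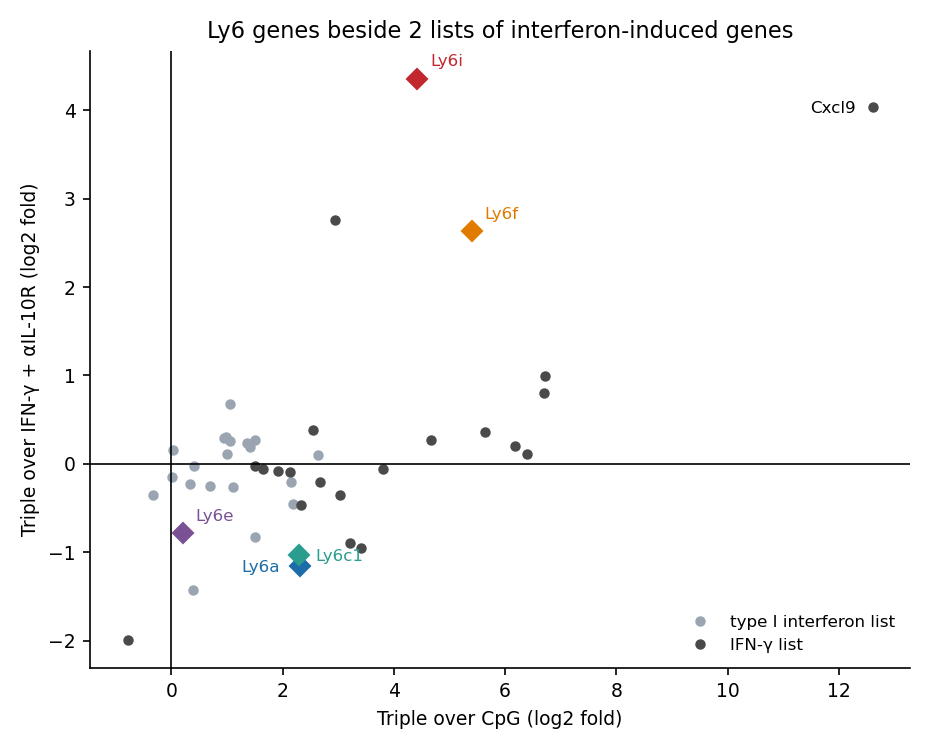
Log2 fold of Triple over IFN-γ + αIL-10R against that of Triple over CpG for the 5 Ly6 genes (diamonds), 20 IFN-γ-induced genes (dark points), and 20 type I interferon-induced genes (light points); Ido1 is at its lower bound on both axes. Ly6a and Ly6c1 lie below zero on the vertical axis (−1.15 and −1.03) and Ly6i lies highest on it (4.36).

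Of 31 other Ly6/uPAR domain genes 30 were measured and 14 were well above background on at least 1 array. In Triple compared with IFN-γ + αIL-10R 2 were higher, Plaur and Ly6k, and 2 were lower, Ly6g and Ly6g6d (all names: 3.56% and 5.01%). In Triple compared with CpG 2 were higher, Ly6g and Ly6k, and none was lower (all names: 4.12% and 4.58%). Plaur, the urokinase receptor gene, was also higher in CpG than in IFN-γ + αIL-10R, where only Ly6g was lower (all names: 2.75% and 3.19%).

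Plaur had signals of 4068 in CpG, 1794 in IFN-γ + αIL-10R, and 5907 in Triple. It was thus lowest where Ly6a and Ly6c1 were highest, with a log2 fold of 1.76 for Triple over IFN-γ + αIL-10R. Ly6g6d had 53.0 in CpG and 76.2 in IFN-γ + αIL-10R and was not well above background in Triple, lower by at least log2 1.495 than in IFN-γ + αIL-10R. Cd59a, an inhibitor of the complement membrane attack complex, had 733, 715, and 456 and stayed within 2-fold. Lypd2, Lypd5, Lynx1, Spaca4, and Gpihbp1, measured on all 3 arrays, also lay within 2-fold in each comparison. Lypd3 was well above background in Triple only (38.2) and Lypd6 in IFN-γ + αIL-10R only (45.1), so their folds rest on signals not well above background.

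The anchor that holds Ly6 proteins at the membrane is made and attached by PIG and PGAP enzymes and their partners, and all 28 genes of a list of these were measured. In Triple compared with IFN-γ + αIL-10R 4 were higher and 2 were lower (all names: 3.56% and 5.01%). In Triple compared with CpG 3 were higher and none was lower (all names: 4.12% and 4.58%). In CpG compared with IFN-γ + αIL-10R 2 were lower and none was higher (all names: 3.19% and 2.75%). All 28 genes were well above background on at least 1 array, unlike most names, so these shares are not like for like. Pgap1, which removes a fatty acid from the anchor, had signals of 241 in CpG, 616 in IFN-γ + αIL-10R, and 285 in Triple, and Mppe1, which trims the anchor, had 171, 402, and 184. The mannosyltransferase gene Pigb was well above background in Triple only, at 97.9. The median log2 folds were −0.16 (Triple over IFN-γ + αIL-10R), −0.07 (Triple over CpG), and −0.06 (CpG over IFN-γ + αIL-10R).

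Because Ly6 antigens mark other blood cells, markers of these were measured on the same arrays. Of 10 neutrophil and precursor markers, one of which is Ly6g, 5 or 6 were well above background per array, and their summed signals were 27845, 33858, and 26537 in CpG, IFN-γ + αIL-10R, and Triple. Most of each sum was Csf3r (23984, 24394, and 21651), and Ly6g itself gave 7699 of the sum in IFN-γ + αIL-10R. Sums of this kind, here and below, add probes of unlike brightness and follow the brightest one. They do not measure the amount of a cell type. The granule protein genes Mpo, Ltf, Ngp, and Retnlg were not well above background on any array. Elane, also a granule protein gene, was well above background on every array (2839, 1615, and 1539), and Camp in CpG (72.9) and Triple (139). S100a8 was 297, 55.7, and 517, and S100a9 had 58.0 in CpG and 38.3 in IFN-γ + αIL-10R and was not well above background in Triple. Of 6 monocyte markers 4 were well above background in CpG and 5 on the other arrays, with F13a1 on none, and the sums were 7965, 2036, and 747, of which Cx3cr1 gave 7523, 1181, and 143. Ccr2, the chemokine receptor of Ly6C-high monocytes, had 172, 541, and 79.1, and was thus highest where Ly6c1 was highest. The part of monocytes in the Ly6c1 signals was not tested.

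Of 6 endothelial and stem cell markers, relevant to Ly6a as Sca-1, 4 were well above background in CpG and 2 on each of the other arrays, with Tek and Gata2 on none and sums of 5569, 6394, and 5806. Most of each sum was the signal of Kdr (5344, 5725, and 5706). Cd34 had 85.4 in CpG and 634 in IFN-γ + αIL-10R and was not well above background in Triple, whereas Kit had 93.9 in CpG and 48.4 in Triple and was not well above background in IFN-γ + αIL-10R. Of 6 dendritic cell markers 2, 4, and 5 were well above background in CpG, IFN-γ + αIL-10R, and Triple. Flt3 was on none, and the sums were 36445, 38231, and 32987, most of which was Siglech (36076, 35974, and 29736). Clec9a had 1963 in IFN-γ + αIL-10R and 152 in Triple and was not well above background in CpG, the order of Ly6a, while Ccr7 was highest in Triple (319, 225, and 2892), as were Zbtb46 (36.3 in IFN-γ + αIL-10R and 133 in Triple) and Xcr1 (60.7 in Triple), which were not well above background elsewhere. The part of such cells in the Ly6 signals was not tested.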

How the data were processed

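Total RNA of BMDMs was labelled with Cy3 and hybridised to Agilent SurePrint G3 mouse arrays, 1 array for each of 3 conditions. The authors deposited the scanner tables of Feature Extraction 10.10.1.1 (Agilent), in which the processed signal is a linear intensity less a fitted background surface. A log2 table deposited by the authors held the log2 processed signals minus 1 constant per array. Its normalization and centring are not given in the sources used here.

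Control spots and spots with a feature outlier mark (0.212% to 0.275% of spots) were left out, and spots of a probe were averaged on the log2 scale. Under 50% of probes were well above background (44.2% on average), so the log2 signals of each array were centred on the 75th percentile of the 22382 probes that stood well above background throughout. The lowest signal well above background was 23.8 to 26.7 per array. Signals that were not well above background and lay below this limit were raised to it, which makes a fold a lower bound. Those above the limit were kept as they were. The brightest probe stood for a gene, and 55659 probes gave 34813 names. A gene was called higher if over 2-fold and well above background in the brighter array, and lower likewise. With 1 array per condition there is no test and no p-value.

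The Ly6 genes, the gene lists, and the markers were chosen with earlier results of these data known. The genes named are all listed Ly6 genes, up to 12 other Ly6/uPAR genes well above background, the 3 nearest neighbours of each Ly6 gene (5 for Ly6i), genes of the chromosome 15 stretch, and up to 3 genes per list by largest fold. Ciita, Ido1, Ifit3, and the markers were named after their values were seen. One list of markers is not reported here. Sequences are from the array files and from RefSeq (GRCm38.p6). Calls were tested on simulated data with changes well past 2-fold in probes well above background on all arrays. Folds near the threshold and signals not well above background were not covered. Python 3.11.15, pandas 2.3.3, R 4.3.3, and limma 3.58.1 were used. The 14 alternatives tried covered background correction, scaling, the filter on dim probes, outlier spots, the choice of probe, and the threshold.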

Additional observations from a re-analysis of the deposited data

How the results depend on the processing

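No paired analysis was possible because there was 1 array in each condition. No log2 fold of a Ly6 gene past 2-fold changed its direction under the 11 alternatives that gave it a fold, or for Ly6c1 on the second probe, and the numbers of Ly6 genes called stayed within 1.5 times in 5 of the 6 counts, the exception being genes lower in Triple than in IFN-γ + αIL-10R. That count was 2 in the values reported, 1 with the 75th percentile over all probes, 1 with the authors' log2 table, 1 with the mean of the probes of a gene, and 0 at a 3-fold threshold. Ly6c1 was the gene lost in each of these, and at 3-fold Ly6a was lost too. With normexp background correction (offset 50) the log2 folds of the dim probes were smaller: in Triple Ly6f was 4.08 over CpG, whereas CpG over IFN-γ + αIL-10R was −1.70 for that gene, and Ly6i in Triple was 3.64 over IFN-γ + αIL-10R, with 3.77 over CpG. For Ly6c1 in Triple over IFN-γ + αIL-10R the mean of the probes was −0.62 and the second probe by itself −0.21. The cause of the other moves was not tested. Scaling by the 75th percentile over all probes moved the median of all genes in that comparison (log2 fold) from 0.02 to 0.13, the authors' table gave 0.12, and scaling by spike-in probes gave −0.13. The shares of all gene names called, over both directions of the 3 comparisons, were 2.75% to 5.01% in the values reported, 7.11% to 9.14% with no filter on dim probes, 6.13% to 9.33% at 1.5-fold, 1.26% to 2.46% at 3-fold, and 1.67% to 3.303% with normexp correction. Leaving out spots with a local background mark, an alternative chosen after seeing the data, removed Ly6e and changed no other call of these genes. Signal over background limits the folds of Ly6f, Ly6i, and the second Ly6c1 probe, whose signals in CpG were 48.4 to 106 beside a lower limit of 23.8.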
